A study of Macaca fascicularis with 6 samples.

Results

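KRT12-high corneal cells at day 1 are the epithelial cells that, 1 day after corneal injury, gave the largest share of their counts to KRT12, the keratin that marks the corneal type of epithelial differentiation. Within each day 1 sample the barcodes were ranked by KRT12 counts divided by total counts, and the top 25% were taken, so members were chosen by their measured KRT12 counts. This gave 686 KRT12-high barcodes, 370 of 1482 in replicate 1 and 316 of 1267 in replicate 2, out of 2749 barcodes at day 1 and 7895 in the series. They were set against the bottom 50% of the same samples, called KRT12-low here, with 741 and 633 barcodes. KRT12 itself was left out of the tests and of the totals used for scaling, apart from an alternative setting that kept it. KRT12 shares, counts per barcode and whole-sample counts include it.

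All samples came from corneas of wild-type (WT) cynomolgus monkeys (Macaca fascicularis), 2 each at day 1 after corneal injury, at day 3 after corneal injury and without injury. The labels do not say how the cornea was injured, how old the animals were, or whether replicates were different animals, so a p-value here speaks only to how far the deposited samples spread, and that spread may be technical. Cells were captured on the 10x Genomics Chromium controller. HIT-scISOseq, which reads whole cDNA molecules of single cells as long reads, was the sequencing method. The same rule applied to the other days gave 541 KRT12-high barcodes at day 3 (274 and 267) and 745 in uninjured corneas (391 and 354).

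The corneal epithelium is a stratified, non-keratinising sheet that is renewed from basal and limbal progenitors. Its cells pair KRT12 with KRT3 as they leave the basal state, while basal cells carry KRT14 and KRT15 and the neighbouring conjunctiva carries KRT4, KRT13, KRT7 and KRT19. After an abrasion, cells at the margin flatten and migrate, change their adhesion and matrix genes, and release alarmins and cytokines before the sheet stratifies again. The cornea also accumulates crystallin-like enzymes, among them aldehyde dehydrogenases and transketolase, and depends on retinoic acid, which CYP26 enzymes break down.

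At the cut, the last barcode inside held 2.25% of its counts as KRT12 in replicate 1 and 2.41% in replicate 2. The first barcode outside also rounded to 2.25% and 2.41%. Within 10% of the cut lay 95 and 74 barcodes inside and 106 and 73 outside, so the class is a range on a scale and not a separate type. The median KRT12 share was 2.70% and 2.93% in KRT12-high cells, against 0 in KRT12-low cells of both replicates, and the KRT12-low cells reached up to 1.16% and 1.15%. KRT12-high cells had a median of 3581 and 3418 counts per barcode, against 2629 and 2296 in KRT12-low cells. Mitochondrially encoded transcripts made up 5.54% and 5.22% of counts in KRT12-high cells and 8.93% and 9.49% in KRT12-low cells. The summed counts other than KRT12 were 1278434 and 1009628 for KRT12-high cells. Whole samples of the series held between 3733442 and 4928103 counts, KRT12 included. Of the KRT12-high barcodes, Scrublet called 2 in each replicate as doublets, and 1 had a barcode sequence that also occurred in another library.

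Levels are CPM, the usual depth-scaled count unit, after TMM scaling of counts other than KRT12. The 3 other genes named for these cells stood with KRT12. KRT3, the partner keratin of KRT12, was at 7175 and 7479 CPM in KRT12-high cells, against 156 and 135 CPM in KRT12-low cells. KRT24, a keratin of the differentiated epithelium, was at 4772 and 4566 CPM in KRT12-high cells, against 462 and 481 CPM in KRT12-low cells. MUC22, a membrane mucin, was at 209 and 197 CPM in KRT12-high cells, against 13.7 and 19.4 CPM in KRT12-low cells. For all 3 the lowest KRT12-high sample lay above the highest KRT12-low sample, and the log2 differences were 5.64, 3.31 and 3.65. These genes were part of the description of the class, so the values are given without a test. KRT5, a keratin shared by basal and corneal cells, was found in 100% of KRT12-high cells of both replicates, against 93.7% and 90.4% of KRT12-low cells. These shares are as observed and not at equal depth, and KRT12-low barcodes held fewer counts.

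Conjunctival keratins were low in the class. KRT4 had 13 counts in KRT12-high cells of each replicate, against 4642 and 3299 in KRT12-low cells. KRT19 had 28 and 22 counts in KRT12-high cells, against 7425 and 5374 in KRT12-low cells. KRT13, KRT8, KRT18 and MUC5AC had no row in any gene table of the series, so nothing can be said of their levels. KRT4 or KRT7 was found in 28 and 19 KRT12-high barcodes, against 337 and 263 KRT12-low barcodes. Counts for the groups compared with KRT12-low cells below are therefore also given, where they moved, without every barcode that held a KRT4 or KRT7 count, a setting added after the data were seen. AGR2, a secretory-cell marker on the same list, went the other way, with 1049 and 888 counts in KRT12-high cells against 747 and 449 in KRT12-low cells. Summed over the 8 detected genes of the 14 on the conjunctival list, the level was 2707 and 2291 CPM in KRT12-high cells, against 8185 and 7399 CPM in KRT12-low cells.

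Markers of cells from outside the epithelium were low in both classes. The summed level of keratocyte and fibroblast markers, 8 of 10 detected, was 98.3 and 77.6 CPM in KRT12-high cells, against 288 and 269 CPM in KRT12-low cells. Nearly all of it was DCN, since LUM and KERA each had 1 count per KRT12-high sample and COL1A1 was at 0. Immune markers, 11 of 16 detected, summed to 105 and 85.3 CPM in KRT12-high cells and to 441 and 404 CPM in KRT12-low cells, with 1 PTPRC count in each KRT12-high sample. CD74, on the same list, had 86 and 51 counts in KRT12-high cells, against 108 and 20 in KRT12-low cells. The KRT12-low sums held more counts in total, and after TMM scaling edgeR's test called CD74 higher in KRT12-high cells. CD68 and LYZ were called lower. The CD74 call was lost with DESeq2 (log2 difference 1.11, adjusted p = 0.41), with barcodes thinned to 1000 counts and without the sample block. Without day 1 replicate 2 the log2 difference of CD74 was 0.38. The part of these markers in the differences below was not tested beyond the setting without KRT4 or KRT7 barcodes.

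Between KRT12-high and KRT12-low cells at day 1, edgeR's quasi-likelihood test within samples called 4071 of 10958 genes at an adjusted p of 0.05 (37.2%). Of these 1852 genes (16.9%) were higher and 2219 (20.3%) lower in KRT12-high cells. With library totals in place of TMM scaling the split was 2608 higher and 1759 lower, and the median log2 difference over all genes moved to 0.12 from a TMM value of -0.02. Across the other days that scaling moved it to -0.29 for day 1 against uninjured and 0.12 for day 1 against day 3. Without day 1 replicate 1 the test called 1091 higher and 1529 lower genes. Removing KRT4 or KRT7 barcodes left 1731 higher and 2028 lower genes of 9970. List counts below cover the members that were tested, since genes near 0 in every sum were not, and are to be read against these shares.

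Genes of corneal differentiation and of the crystallin-like enzymes were mostly higher than in KRT12-low cells. On the differentiation list 8 of 13 tested genes were higher and 4 lower, with a median log2 difference of 0.94, and 11 were higher and 2 lower without KRT4 or KRT7 barcodes. Because KRT3, KRT24 and MUC22 are on that list, its count is not independent of how the class was described. Of the crystallin-like enzymes 6 of 10 were higher and 4 lower, and 7 were higher and 3 lower without those barcodes. ALDH1A1, an aldehyde dehydrogenase that also makes retinoic acid, was at 3229 and 3386 CPM in KRT12-high cells, against 541 and 623 CPM in KRT12-low cells. Its log2 difference was 2.51 (SE 0.07, edgeR adjusted p = 4.1e-45). Transketolase, TKT, was at 1471 and 1653 CPM in KRT12-high cells, against 287 and 265 CPM in KRT12-low cells, a 5.62-fold difference. GSTP1, GSTM3, CRYAB and PRDX6 were the 4 enzymes that were lower.

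Retinoid genes were divided. Both enzymes that clear retinoic acid were higher: CYP26A1 was at 118 and 208 CPM in KRT12-high cells, against 3.42 and 9.72 CPM in KRT12-low cells (log2 difference 4.66, SE 0.26). CYP26B1 was at 524 and 542 CPM in KRT12-high cells, against 71.8 and 77.7 CPM in KRT12-low cells (log2 difference 2.84, SE 0.10). The samples of the classes did not overlap for either gene. DHRS9, a retinol dehydrogenase, was at 5.60 and 0.97 CPM in KRT12-high cells, against 205 and 194 CPM in KRT12-low cells. Its call was lost without KRT4 or KRT7 barcodes, where the log2 difference was -0.52 (edgeR adjusted p = 0.64). On the whole list 5 of 14 genes were higher and 4 lower, and 6 of 12 were higher and 1 lower without those barcodes.

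Genes of cell junctions were higher on balance. Of 11 desmosomal genes 8 were higher and 3 lower, and of 10 tight junction genes 5 were higher and 2 lower. With KRT4 or KRT7 barcodes removed 8 desmosomal genes were higher and 2 lower, and of 9 tight junction genes 8 were higher and 1 lower. DSG1, a desmosomal cadherin of differentiated layers, was at 1137 and 1102 CPM in KRT12-high cells, against 190 and 177 CPM in KRT12-low cells. Desmoplakin, DSP, which ties desmosomes to keratin, was at 3491 and 3473 CPM in KRT12-high cells, against 1279 and 1212 CPM in KRT12-low cells. CLDN1, a barrier-forming claudin, was at 1105 and 1119 CPM in KRT12-high cells, against 286 and 300 CPM in KRT12-low cells. The log2 differences of DSG1, DSP and CLDN1 were 2.61 (SE 0.08), 1.48 (SE 0.07) and 1.93 (SE 0.07). Among the 3 desmosomal genes that were lower was DSG3, a cadherin of basal layers.

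Most genes of lipid synthesis were higher. Of 19 cholesterol and lipid genes 12 were higher and 2 lower, with a median log2 difference of 0.56, against -0.02 for all genes, and 8 were higher and 1 lower without KRT4 or KRT7 barcodes. The sterol enzyme MSMO1 was at 156 and 176 CPM in KRT12-high cells, against 48.3 and 40.8 CPM in KRT12-low cells. SC5D, a later enzyme of cholesterol synthesis, was at 69.5 and 65.9 CPM in KRT12-high cells, against 14.2 and 21.4 CPM in KRT12-low cells. Both differences were larger than the spread between replicates, at 3.65-fold and 3.91-fold.

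Among transcription factors 8 of 21 were higher and 9 lower, and 11 were higher and 4 lower without KRT4 or KRT7 barcodes. PAX6, the eye master regulator, KLF4, ELF3, GRHL1 and TP63 were among those higher. GRHL1, a regulator of desmosomal genes, was at 153 and 173 CPM in KRT12-high cells, against 59.1 and 44.7 CPM in KRT12-low cells. PRDM1, a repressor active in terminal differentiation, was at 9.59 and 6.79 CPM in KRT12-high cells, against 51.3 and 58.9 CPM in KRT12-low cells. SOX9 had 2 counts in KRT12-high cells and 119 in KRT12-low cells, a 37.8-fold lower level with an exact counting interval of 10.2 to 316.

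The genes with the highest differences included ETNPPL, an enzyme of phosphoethanolamine breakdown, at 138 and 119 CPM in KRT12-high cells against 2.93 and 3.89 CPM in KRT12-low cells. CA6, a secreted carbonic anhydrase, was at 111 CPM in both KRT12-high samples, against 6.83 and 3.89 CPM in KRT12-low cells. SCIN, an actin-severing protein, DKK3, a member of the Dickkopf family, CLEC7A, the receptor for fungal beta-glucans, and TRIM36, a ubiquitin ligase, were between 13.3-fold and 13.9-fold higher. Of 19 p53 targets 8 were higher and 6 lower, and 7 were higher and 5 lower without KRT4 or KRT7 barcodes. TP53I3, a p53 target with quinone reductase activity, was at 875 and 954 CPM in KRT12-high cells, against 189 and 198 CPM in KRT12-low cells. The quinone reductase NQO1 was at 354 and 372 CPM in KRT12-high cells, against 82.5 and 97.2 CPM in KRT12-low cells.

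**Figure D1:**
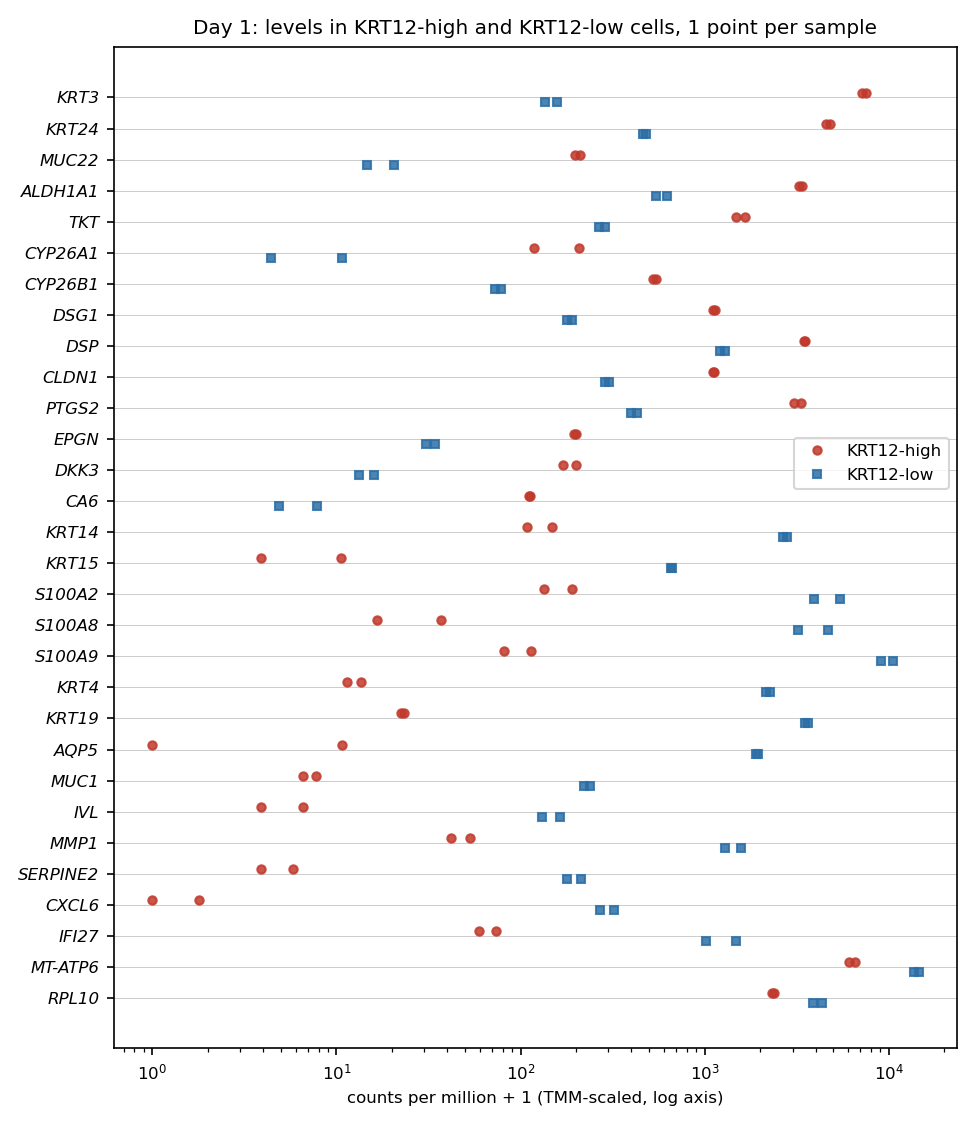
Levels of 30 genes at day 1 in KRT12-high cells (red circles) and KRT12-low cells (blue squares), as TMM-scaled CPM plus 1 on a log axis, with 1 point per sample. From KRT3 down to CA6 both KRT12-high samples lie right of both KRT12-low samples, and from KRT14 down to RPL10 they lie left of them.

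KRT14, KRT15 and most wound keratins and alarmins were lower. KRT14 was at 148 and 107 CPM in KRT12-high cells, against 2645 and 2796 CPM in KRT12-low cells (log2 difference -4.40, SE 0.13, edgeR adjusted p = 3.3e-43). KRT15, which marks progenitors of the limbus and the basal layer, was at 9.59 and 2.91 CPM in KRT12-high cells, against 665 and 651 CPM in KRT12-low cells. Of 18 basal genes 11 were lower and 4, KRT5, CAV1, PERP and SYT8, were higher, against 14 lower and 3 higher without KRT4 or KRT7 barcodes. The calcium-binding alarmin S100A9 was at 114 and 80.5 CPM in KRT12-high cells, against 10500 and 9048 CPM in KRT12-low cells, and its partner S100A8 at 36.0 and 15.5 CPM in KRT12-high cells, against 4653 and 3205 CPM in KRT12-low cells. Of 12 wound keratins and alarmins none was higher and 9 were lower, among them KRT16, KRT17, PI3 and LCN2, while KRT6A, IL1A and HMGB1 did not pass the test. Without KRT4 or KRT7 barcodes 2 of 10 were higher and 7 lower.

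Most genes of matrix remodelling and migration were lower. Of 27 matrix and migration genes 22 were lower and 1, THBS1, was higher, with a median log2 difference of -2.11, or -2.06 with the genes at 0 set to their bound. Without KRT4 or KRT7 barcodes 19 were lower and 2 higher. The interstitial collagenase MMP1 was at 52.0 and 40.7 CPM in KRT12-high cells, against 1564 and 1290 CPM in KRT12-low cells. MMP10, a stromelysin, was at 3.997 and 3.88 CPM in KRT12-high cells, against 173 and 187 CPM in KRT12-low cells. Both enzymes degrade extracellular matrix. SERPINE2, an inhibitor of serine proteases such as thrombin, was at 4.80 and 2.91 CPM in KRT12-high cells, against 178 and 212 CPM in KRT12-low cells. Moesin, MSN, which links actin to the membrane, was at 3.20 and 3.88 CPM in KRT12-high cells, against 177 and 141 CPM in KRT12-low cells. MMP1, MMP10 and SERPINE2 were between 30.7-fold and 48.1-fold lower, and no KRT12-high sample reached a KRT12-low one.

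Cytokine genes did not move together. Of 20 inflammatory genes 12 were lower and 3, IL18, TNFAIP3 and PTGS2, were higher, against 8 of 19 lower and 4 higher without KRT4 or KRT7 barcodes. PTGS2, the inducible cyclooxygenase, was at 3061 and 3322 CPM in KRT12-high cells, against 397 and 426 CPM in KRT12-low cells (log2 difference 2.96, SE 0.07, edgeR adjusted p = 2.0e-51). The neutrophil chemokine CXCL8 was at 28.8 and 39.8 CPM in KRT12-high cells, against 187 and 208 CPM in KRT12-low cells. CXCL3 had no count in KRT12-high cells and 172 in KRT12-low cells, at least 36.4-fold lower with the floor of 3 counts over both samples. CXCL6 had 1 count in KRT12-high cells and 1068 in KRT12-low cells, a ratio of 679 with an exact counting interval of 122 to 26825. Of 21 interferon genes 12 were lower and 2 higher, against 6 of 19 lower and 3 higher without KRT4 or KRT7 barcodes. IFI27 was at 72.7 and 58.2 CPM in KRT12-high cells, against 1473 and 1012 CPM in KRT12-low cells, and IFI6 at 26.4 and 15.5 CPM in KRT12-high cells, against 448 and 347 CPM in KRT12-low cells.

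The ligands of the EGF receptor family, which drive epithelial migration and growth, were divided. EPGN, or epigen, was at 198 and 195 CPM in KRT12-high cells, against 33.2 and 29.8 CPM in KRT12-low cells. Amphiregulin, AREG, was at 380 and 479 CPM in KRT12-high cells, against 1048 and 959 CPM in KRT12-low cells. Over the 10 genes tested 4 were higher and 4 lower, with EREG, HBEGF and TGFA lower beside AREG, and the receptors ERBB2 and ERBB3 and the feedback inhibitor ERRFI1 higher beside EPGN. Without KRT4 or KRT7 barcodes 4 of 9 were higher and 1 lower. Of 20 immediate early genes 15 were lower and 5, FOS, FOSB, JUND, ATF3 and ZFP36, were higher, against 12 lower and 5 higher without KRT4 or KRT7 barcodes. EGR2, a growth-factor-induced transcription factor, was at 11.99 and 10.7 CPM in KRT12-high cells, against 58.6 and 57.7 CPM in KRT12-low cells.

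Genes of the superficial and cornified layers depended on the KRT4 or KRT7 barcodes. Of 15 tested, 13 were lower and 2, the envelope proteins EVPL and PPL, were higher, whereas without those barcodes 5 of 12 were higher and 3 lower. Involucrin, IVL, was at 5.60 and 2.91 CPM in KRT12-high cells, against 163 and 129 CPM in KRT12-low cells, and without KRT4 or KRT7 barcodes its log2 difference was -1.33 (edgeR adjusted p = 0.12). The membrane mucin MUC1 was at 5.60 and 6.79 CPM in KRT12-high cells, against 236 and 221 CPM in KRT12-low cells. MUC20 had 3 counts in KRT12-high cells and 384 in KRT12-low cells, and its call was lost without KRT4 or KRT7 barcodes (edgeR adjusted p = 0.27). The water channel AQP5 was at 0 and 9.70 CPM in KRT12-high cells, against 1895 and 1943 CPM in KRT12-low cells.

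Most ribosomal protein and mitochondrially encoded genes were lower, and most nuclear genes of oxidative phosphorylation were higher. Of 22 ribosomal protein genes 20 were lower and none higher, with a median log2 difference of -0.36, but with library totals 14 were lower and 1 higher. Removing KRT4 or KRT7 barcodes left 21 of the 22 lower. RPL10 was at 2368 and 2324 CPM in KRT12-high cells, against 4321 and 3871 CPM in KRT12-low cells. Of 12 nuclear genes of oxidative phosphorylation 9 were higher and none lower, and 5 were higher without KRT4 or KRT7 barcodes. COX7B, a subunit of cytochrome oxidase, was at 671 and 430 CPM in KRT12-high cells, against 399 and 252 CPM in KRT12-low cells, without overlap between the classes. Of 9 mitochondrially encoded transcripts 6 were lower, or 5 without KRT4 or KRT7 barcodes, and MT-ATP6 was at 6519 and 6078 CPM in KRT12-high cells, against 13733 and 14508 CPM in KRT12-low cells. Of 18 mitotic genes 7 were lower and none higher, and of 19 DNA replication genes 1 was higher and 1 lower. Of 18 DNA replication genes tested without KRT4 or KRT7 barcodes 4 were lower and none higher.

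**Figure D2:**
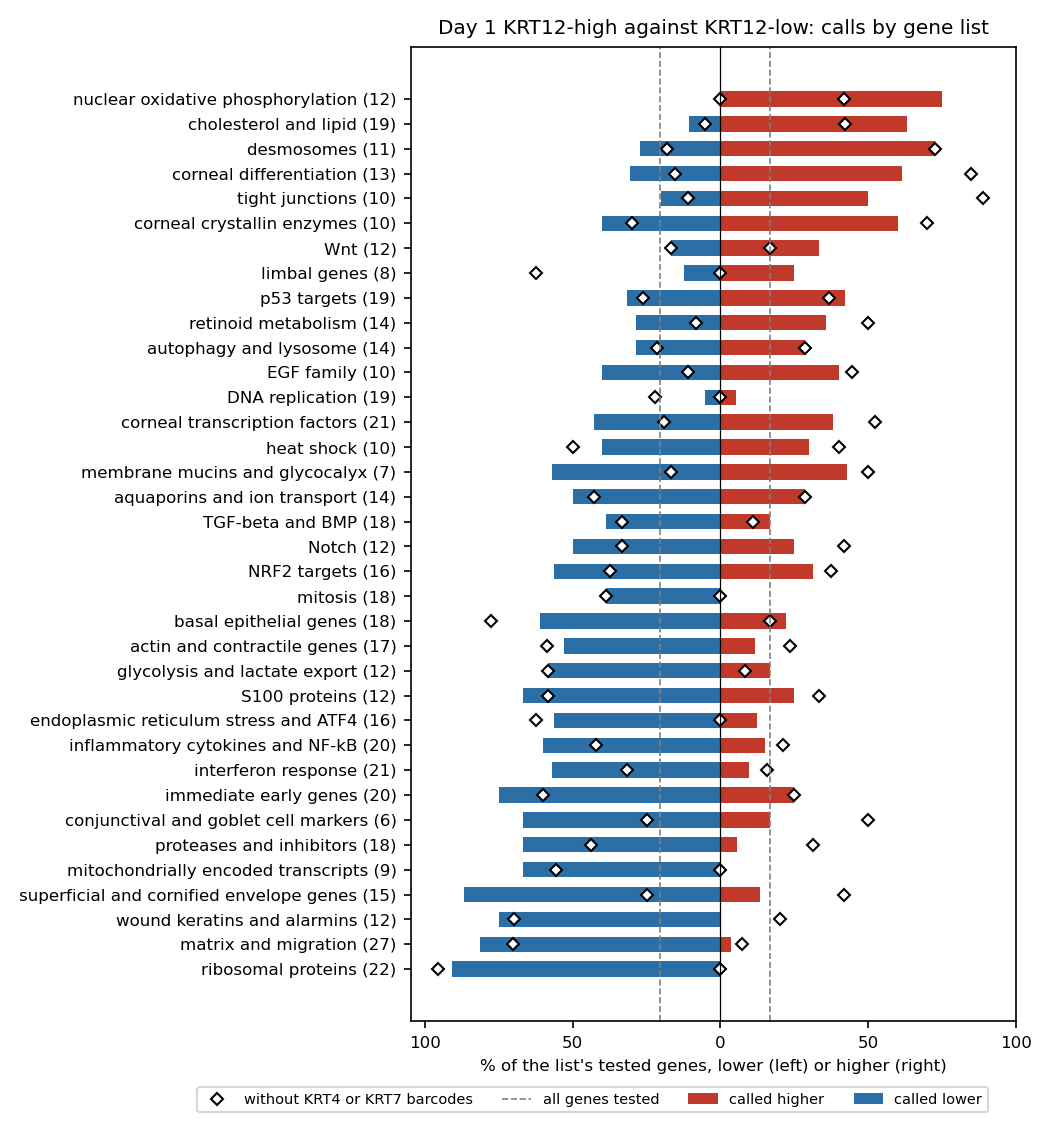
Share of the tested genes of each list called higher (red bars, right) or lower (blue bars, left) in KRT12-high against KRT12-low cells at day 1, with the number of tested genes in brackets. Dashed lines mark 16.9% and 20.3% of all genes tested, and diamonds give the shares without KRT4 or KRT7 barcodes, which lie far from the bars for the superficial and cornified envelope genes.

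Ranking day 1 barcodes into quartiles by KRT12 share placed the largest step of KRT3, KRT24 and KRT4 between the second and the third quartile. No KRT12 count was found in 467 of 1482 and 409 of 1267 barcodes (31.5% and 32.3%). The cut between the lowest and the second quartile thus fell among ties, which were ordered by barcode sequence. The values of the next sentences are CPM of counts other than KRT12 without TMM scaling, given from the lowest to the highest quartile. In replicate 1 KRT3 was at 18.1, 232, 4207 and 7021 CPM, and in replicate 2 at 12.9, 219, 4906 and 7639 CPM. KRT24 was at 252, 525, 5038 and 4670 CPM in replicate 1 and at 419, 459, 4908 and 4664 CPM in replicate 2. KRT3 thus kept its highest value in the top quartile of both replicates, while KRT24 was highest in the third. KRT4 was at 1737, 2168, 10.5 and 10.2 CPM in replicate 1 and at 1912, 1997, 51.7 and 12.9 CPM in replicate 2. KRT14 was at 2949, 1787, 314 and 145 CPM in replicate 1 and at 3029, 2161, 368 and 109 CPM in replicate 2. CXCL14, a chemokine of epithelial tissues, was at 83.8, 162, 531 and 203 CPM in replicate 1 and at 74.6, 160, 442 and 167 CPM in replicate 2. It peaked in the third quartile of both replicates.

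**Figure D3:**
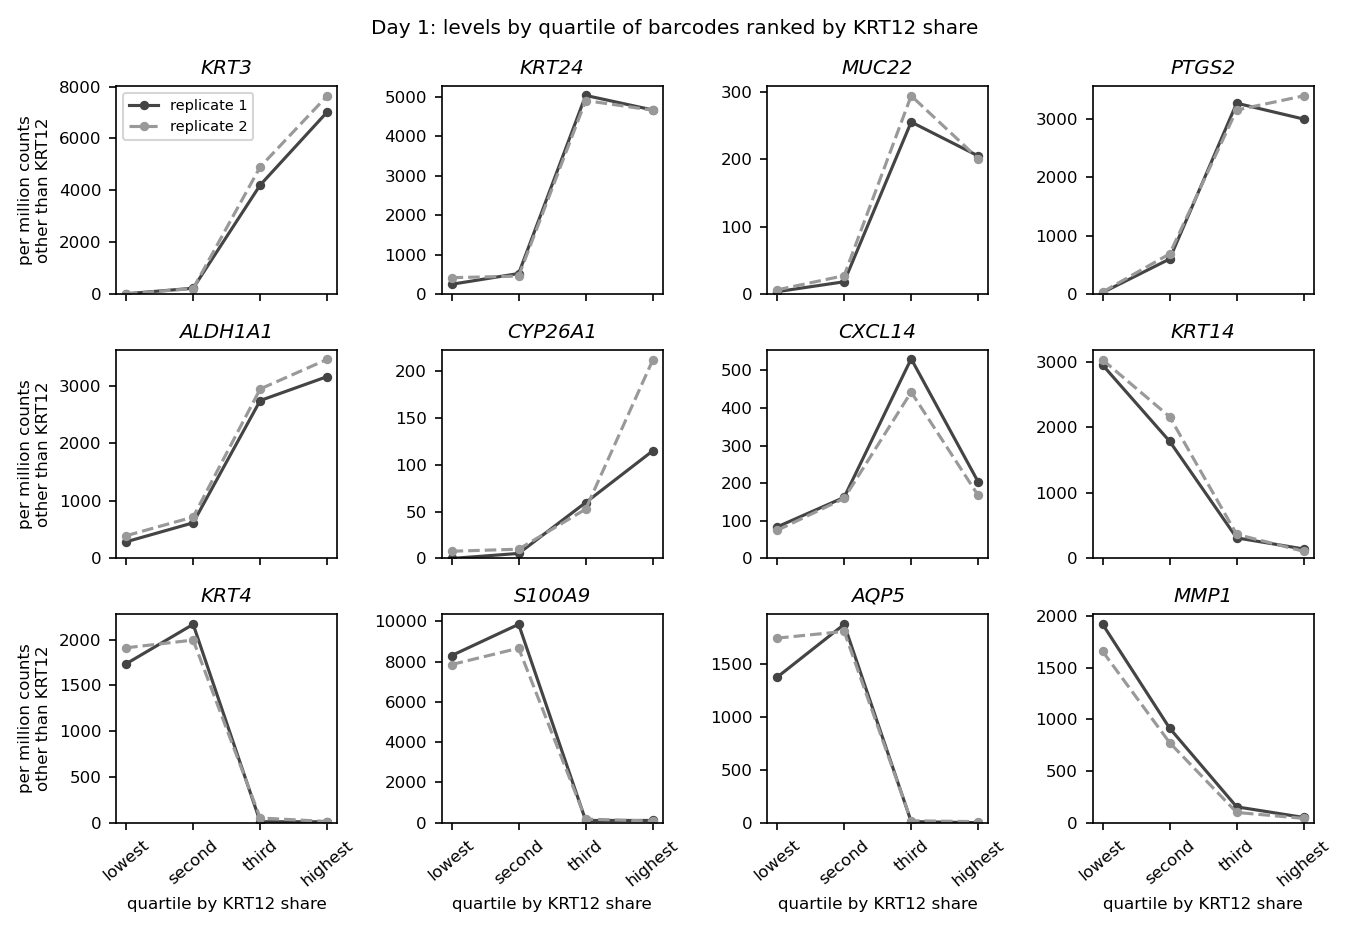
Levels at day 1, in CPM of counts other than KRT12, in the 4 quartiles of barcodes ranked by KRT12 share, with replicate 1 solid and replicate 2 dashed. The cut between the lowest and the second quartile lies among barcodes without a KRT12 count. KRT3, ALDH1A1 and CYP26A1 are highest in the top quartile of both replicates, CXCL14, MUC22 and KRT24 are highest in the third, and KRT4, S100A9 and AQP5 are near 0 in both upper quartiles.

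Against the third quartile alone, the cells next to them on the KRT12 scale, KRT12-high cells differed in far fewer genes. The same test called 363 of 9975 genes (3.64%), of which 137 (1.37%) were higher and 226 (2.27%) lower. Of 18 basal genes 12 were lower and 2 higher, and of 23 matrix and migration genes 12 were lower and none higher. Corneal differentiation genes went the other way from the comparison with KRT12-low cells, with 2 higher and 6 lower of 13 and a median log2 difference of -0.09. Of the 10 crystallin-like enzymes 1 was higher and 1 lower. The genes named next were chosen after their values were seen. IGFBP2, a binding protein of insulin-like growth factors, was at 146 and 150 CPM in KRT12-high cells, against 786 and 813 CPM in the third quartile (log2 difference -2.43, SE 0.08). COL7A1, the anchoring fibril collagen, was at 5.76 and 9.07 CPM in KRT12-high cells, against 45.8 and 60.8 CPM in the third quartile. Neither gene overlapped between the quartiles. LAMA3, a chain of the basement membrane laminin, was at 54.3 and 61.5 CPM in KRT12-high cells, against 224 and 213 CPM in the third quartile. ITGB4, the hemidesmosomal integrin chain, was at 98.7 and 113 CPM in KRT12-high cells, against 286 and 267 CPM in the third quartile. For LAMA3 and ITGB4, too, both KRT12-high samples lay below both samples of the third quartile. These genes were picked with their values known, so the lack of overlap is no separate result.

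In the same comparison CXCL14 was lower in KRT12-high cells, at 214 and 170 CPM against 557 and 450 CPM in the third quartile. That is the opposite of its direction against KRT12-low cells, where it was at 208 and 164 CPM in KRT12-high cells and at 146 and 131 CPM in KRT12-low cells. That call was lost without day 1 replicate 1 (log2 difference 0.31, edgeR adjusted p = 0.18). Without KRT4 or KRT7 barcodes its direction against KRT12-low cells also turned, to a log2 difference of -0.55. Of 8 limbal genes, CXCL14 among them, 2 were higher and 1 lower than in KRT12-low cells, and none was higher and 5 were lower without those barcodes. CYP26A1 was higher, at 121 and 216 CPM in KRT12-high cells, against 62.7 and 53.6 CPM in the third quartile. ID1, a target of BMP signalling, was at 720 and 680 CPM in KRT12-high cells, against 373 and 335 CPM in the third quartile. CYP26B1, at 540 and 564 CPM in KRT12-high cells and 565 and 514 CPM in the third quartile, did not pass the test (log2 difference 0.03, SE 0.08). MUC22 and NQO1 were lower than in the third quartile, by log2 values of -0.42 and -0.35, although both were higher than in KRT12-low cells.

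Cell by cell, the class was uniform in some genes and mixed in others. Shares of cells with a count are given as observed, and in brackets at 1000 counts per cell, which left out 16 KRT12-high barcodes in each replicate and 52 and 90 KRT12-low barcodes. KRT3 was found in 98.9% (98.3%) and 99.4% (98.6%) of KRT12-high cells, against 11.9% (6.06%) and 13.7% (7.45%) of KRT12-low cells. PTGS2 was found in 97.3% (86.7%) and 95.6% (86.7%) of KRT12-high cells, against 19.7% (12.4%) and 19.4% (12.6%) of KRT12-low cells. Both genes were thus detected in nearly the whole class.

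KRT24 was found in 75.4% (64.9%) and 75.9% (66.7%) of KRT12-high cells, against 26.0% (15.0%) and 26.7% (16.05%) of KRT12-low cells. Its level ran from 0 at the 10th percentile over a median of 20.5 to 123 per 10000 counts at the 90th percentile in replicate 1, and from 0 over 17.2 to 122 in replicate 2. KRT3 was narrower, at 33.5, 68.2 and 108 per 10000 counts in replicate 1 and 37.1, 73.0 and 117 in replicate 2. CYP26B1 was found in 65.9% (35.1%) and 67.4% (38.2%) of KRT12-high cells, against 8.10% (4.60%) and 8.69% (5.57%) of KRT12-low cells. CYP26A1 was found in 21.4% (8.96%) and 26.6% (14.04%) of KRT12-high cells, against 0.945% (0.247%) and 1.90% (0.60%) of KRT12-low cells. MUC22 was found in 38.1% (16.6%) and 38.6% (16.3%) of KRT12-high cells. These enzymes and MUC22 were thus detected in part of the class only, and at this depth a cell without a count may still express the gene.

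The injury keratin KRT6A was found in 92.7% (85.2%) and 94.9% (88.4%) of KRT12-high cells, against 71.4% (61.4%) and 69.98% (65.04%) of KRT12-low cells. Few cells shared the top quartile of KRT12 with the top quartile of KRT14. Of KRT12-high barcodes 14 and 7 (3.78% and 2.22%) were also in the top quartile by KRT14 share, against 330 and 284 KRT12-low barcodes (44.5% and 44.9%). For KRT15 the shared barcodes were 3 and 1 among KRT12-high cells and 358 and 309 among KRT12-low cells.

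The difference between KRT12-high and KRT12-low cells was itself compared between day 1 and uninjured corneas. KRT12-low cells were not alike on both days: at day 1 their KRT12 share reached 1.16% and 1.15%, whereas 778 of 782 and 590 of 708 uninjured KRT12-low barcodes held no KRT12 count. The difference of differences was called for 1693 of 10958 genes (15.4%), 665 (6.07%) of them more towards KRT12-high cells at day 1 and 1028 (9.38%) more towards KRT12-low cells. With library totals 914 moved towards KRT12-high cells and 835 towards KRT12-low cells, and without day 1 replicate 1 353 and 712 did. KRT24 was at 4772 and 4566 CPM in KRT12-high cells against 462 and 481 CPM in KRT12-low cells at day 1, and at 664 and 710 CPM in KRT12-high cells against 765 and 951 CPM in KRT12-low cells of uninjured corneas. KRT24 was thus higher in both KRT12-high samples at day 1 and lower in both of them in uninjured corneas, a log2 difference of differences of 3.63. Its day 1 part belongs to the description of the class, so no test is given.

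MT3, a metallothionein that binds zinc and copper, showed the opposite. It was at 966 and 566 CPM in KRT12-high cells against 7523 and 4279 CPM in KRT12-low cells at day 1, and at 1507 and 1461 CPM in KRT12-high cells against 385 and 410 CPM in KRT12-low cells of uninjured corneas. IFI27 was at 72.7 and 58.2 CPM in KRT12-high cells against 1473 and 1012 CPM in KRT12-low cells at day 1, and at 115 and 92.1 CPM in KRT12-high cells against 97.8 and 67.6 CPM in KRT12-low cells of uninjured corneas. The elastase inhibitor PI3, or elafin, was at 86.3 and 73.7 CPM in KRT12-high cells against 1605 and 1135 CPM in KRT12-low cells at day 1, and at 5.99 and 11.6 CPM in KRT12-high cells against 6.88 and 4.71 CPM in KRT12-low cells of uninjured corneas. The log2 differences of differences of MT3, IFI27 and PI3 were -4.84 (SE 0.10), -4.58 (SE 0.17) and -4.76 (SE 0.46).

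Transcription factors moved mainly towards KRT12-high cells, with 8 of 21 towards them and 2 away. Of 22 ribosomal protein genes 14 moved towards KRT12-high cells and none away, with a median of 0.29. With the bottom 25% of barcodes as the compared cells, 2 of the 22 did and none moved away, with a median of 0.19. Of 18 basal genes 4 moved towards and 10 away, of 21 interferon genes 6 moved away (2 of 19 without KRT4 or KRT7 barcodes), and of 17 actin genes 1 moved towards and 8 away. Of 10 tight junction genes none passed the test, where 2 were called with library totals and 3 of 9, all towards KRT12-high cells, without KRT4 or KRT7 barcodes.

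**Figure D4:**
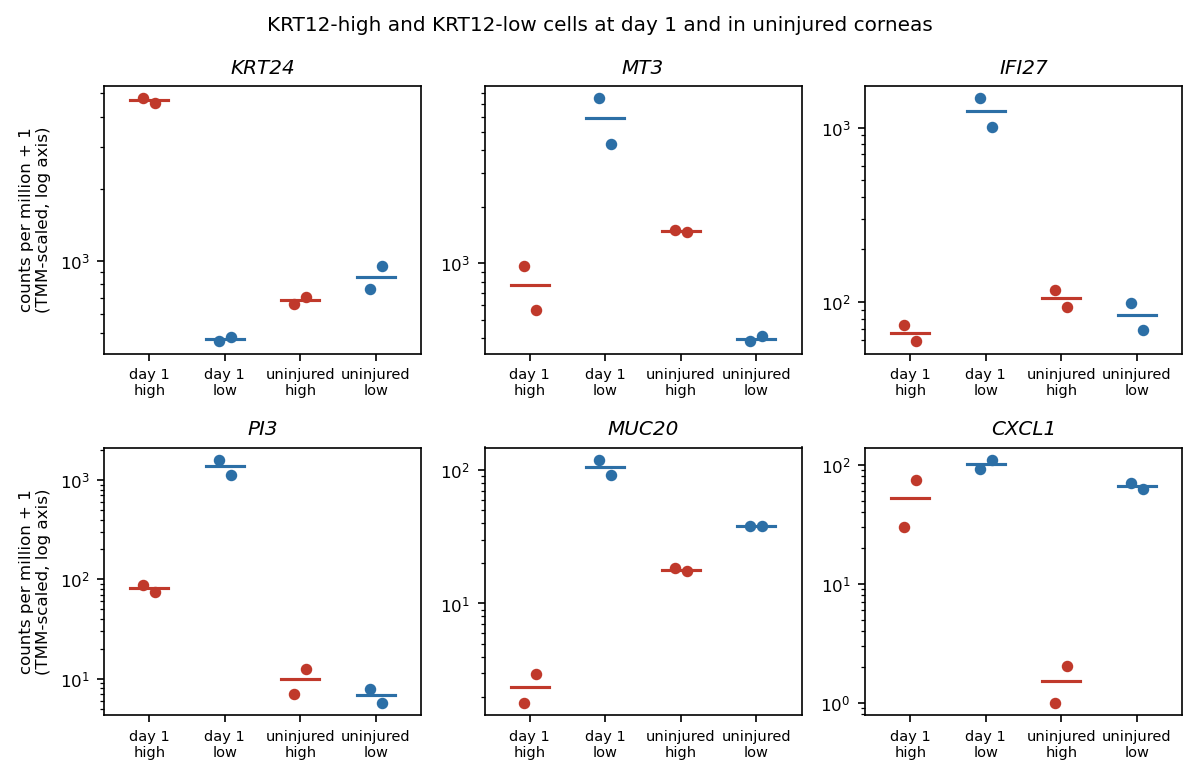
Levels of 6 genes in KRT12-high (red) and KRT12-low (blue) cells at day 1 and in uninjured corneas, with 1 point per sample. Values are TMM-scaled CPM plus 1 on a log axis, and a bar marks their arithmetic mean. KRT24 is higher in KRT12-high cells at day 1 and lower in them in uninjured corneas, and MT3 is higher in KRT12-low cells at day 1 and in KRT12-high cells of uninjured corneas.

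KRT12-high cells at day 1 were then set against KRT12-high cells of uninjured corneas. The cut was similar, at 2.25% and 2.41% of counts at day 1 and 2.20% and 2.30% in uninjured corneas. Of 9414 genes tested 4653 were called (49.4%), 2386 (25.3%) higher and 2267 (24.1%) lower at day 1. With library totals the split was 1548 higher and 3363 lower, so the balance of directions depended on the scaling. Of 16 inflammatory genes 14 were higher at day 1 and none lower, also with library totals. The median log2 change of these genes was 1.82, against -0.04 for all genes.

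CCL20, a chemokine for dendritic and T cells, was at 99.1 and 83.4 CPM at day 1, while uninjured KRT12-high cells of replicate 2 had no count and the table of uninjured replicate 1 had no row for it. CXCL8 had 77 counts in KRT12-high cells at day 1 and 1 in uninjured ones, a ratio of 120 with an exact counting interval of 20.9 to 4804. S100A9 had 225 counts at day 1 and 1 in uninjured corneas (ratio 351, interval 62.3 to 13921), and S100A8 had none in uninjured corneas, at least 31.7-fold higher at day 1. Uninjured KRT12-high cells thus held at most 1 count of each of these 4 genes. Of 9 wound keratins and alarmins 7 were higher and none lower, and of 10 S100 genes 9 were higher and none lower.

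CYP26B1, HMOX1, SERPINB1 and SERPINB2 were among the genes most raised at day 1. CYP26B1 was at 524 and 542 CPM at day 1 and at 7.78 and 10.1 CPM in uninjured corneas, a log2 change of 5.86 (SE 0.16, edgeR adjusted p = 6.7e-24). HMOX1, the haem oxygenase induced by oxidative stress, was at 204 and 218 CPM at day 1 and at 5.39 and 4.76 CPM in uninjured corneas. SERPINB1, an inhibitor of neutrophil proteases, was at 2424 and 2623 CPM at day 1 and at 77.8 and 116 CPM in uninjured corneas. Each was far above its uninjured level in both replicates. SERPINB2, the type 2 inhibitor of plasminogen activators, was at 472 and 486 CPM at day 1 and at 14.4 and 24.3 CPM in uninjured corneas. The 4 genes were between 24.0-fold and 58.0-fold higher. Their samples did not overlap between the days, which was a condition for naming them. On the list of proteases and inhibitors 6 of 14 genes were higher and 4, CST3, CST6, CSTA and CTSD, lower.

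KRT23, a type I keratin, was at 245 and 192 CPM at day 1 and at 7.18 and 8.47 CPM in uninjured corneas. MUC22 was at 209 and 197 CPM at day 1 and at 15.6 and 6.35 CPM in uninjured corneas. The exonuclease gene ISG20 was 17.5-fold higher, and UGCG, which makes glucosylceramide for the lipid barrier, was 12.7-fold higher. Stratifin, SFN, a 14-3-3 protein of epithelial cells, was at 9839 and 11081 CPM at day 1 and at 1381 and 1406 CPM in uninjured corneas.

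Most tight junction genes were higher too. Of 8 tight junction genes 7 were higher and none lower, and with library totals 6 were higher and 1 lower. CLDN7 was at 1308 and 1391 CPM at day 1 and at 460 and 435 CPM in uninjured corneas, and the barrier protein occludin, OCLN, at 131 and 124 CPM at day 1 and at 43.1 and 44.5 CPM in uninjured corneas. EPGN was 4.32-fold and TGFA, another EGF receptor ligand, 16.2-fold higher, and 5 of 9 EGF family genes were higher and 2 lower, or 4 lower with library totals. Of 22 matrix and migration genes 12 were higher and none lower, and with library totals 12 were higher and 2 lower. Of 15 NRF2 targets 10 were higher and 1 lower, and with library totals 6 were higher and 2 lower. Ribosomal protein genes were higher in 21 of 22, and in 8 of 22 with library totals.

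PCK1, TXNIP, KRT15 and CXCL14 were among the genes lower at day 1. PCK1, the rate-limiting enzyme of glucose synthesis from lactate and amino acids, was at 7.99 and 7.76 CPM at day 1 and at 592 and 681 CPM in uninjured corneas (log2 change -6.34, SE 0.19). TXNIP, an inhibitor of thioredoxin and of glucose uptake, was at 0 and 6.79 CPM at day 1 and at 209 CPM in both uninjured samples. KRT15 was at 9.59 and 2.91 CPM at day 1 and at 356 and 425 CPM in uninjured corneas. None of these genes came near its uninjured level. CXCL14 was at 208 and 164 CPM at day 1 and at 967 and 821 CPM in uninjured corneas. For all 4 the samples of the days did not overlap, which was a condition for naming them. Of 11 genes of glycolysis and lactate export 7, HK2 and GAPDH among them, were higher and none lower, and with library totals 4 were higher and 3 lower.

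Most genes of several signalling lists were lower. Of 11 Notch genes 9 were lower and 1, HES2, was higher, and of 11 Wnt genes 7 were lower and 3 higher. Of 16 TGF-beta and BMP genes 9 were lower and 1 higher, and of 20 immediate early genes 16 were lower and 1 higher. FOSL1, the exception among the immediate early genes and an AP-1 subunit of migrating epithelium, was 6.35-fold higher, whereas NR4A1, an orphan nuclear receptor, was at 194 and 200 CPM at day 1 and at 1100 and 1110 CPM in uninjured corneas. The homeobox gene MEIS1 was at 15.2 and 20.4 CPM at day 1 and at 130 and 123 CPM in uninjured corneas, and 11 of 19 corneal transcription factors were lower and 4 higher. WNT4 was at 0.80 and 5.82 CPM at day 1 and at 41.3 and 37.1 CPM in uninjured corneas. Of 8 mitotic genes 6 were lower and none higher.

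The same day 1 samples were set against KRT12-high cells at day 3, so this comparison and the previous one share their day 1 values. The cut was lower at day 3, at 1.30% and 1.35% of counts, so the top quartile there holds barcodes with smaller KRT12 shares. Of 9414 genes tested 4224 were called (44.9%), 2048 (21.8%) higher and 2176 (23.1%) lower at day 1. Keratins were among the genes with the lowest values at day 1. KRT16, a keratin of activated epithelium, was at 10.4 and 25.2 CPM at day 1 and at 4937 and 4313 CPM at day 3, a log2 change of -8.07 (SE 0.19, edgeR adjusted p = 2.0e-25). KRT14 was at 148 and 107 CPM at day 1 and at 13856 and 14132 CPM at day 3. The keratins were 269-fold and 109-fold lower at day 1.

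All 10 tested genes of the superficial and cornified list were lower at day 1, and none of 10 S100 genes was higher and 9 were lower. Markers of other cells also differed between these KRT12-high samples. KRT4 or KRT7 was found in 28 of 370 and 19 of 316 barcodes at day 1 and in 44 of 274 and 34 of 267 at day 3, and KRT4 and KRT19 were called lower at day 1. Keratocyte and fibroblast markers summed to 98.3 and 77.6 CPM at day 1 and to 668 and 740 CPM at day 3, with LUM and DCN both called lower at day 1. When KRT4 or KRT7 barcodes were left out, all 8 superficial and cornified genes tested were lower at day 1, and 9 of 10 S100 genes. The part of the keratocyte and fibroblast markers was not tested. CSTA, the cystatin of the cornified envelope, was at 67.1 and 43.6 CPM at day 1 and at 951 and 1040 CPM at day 3. SPINK5, a protease inhibitor of cornified layers, was at 1297 and 1097 CPM at day 3, and the day 1 tables had no row for it. S100A9 was at 114 and 80.5 CPM at day 1 and at 1225 and 764 CPM at day 3. IFI27 was at 72.7 and 58.2 CPM at day 1 and at 2199 and 2013 CPM at day 3, and 11 of 20 interferon genes were lower and 3 higher. Vimentin, VIM, a mesenchymal filament protein, was at 1.60 and 2.91 CPM at day 1 and at 176 and 184 CPM at day 3. Ribosomal protein genes were lower in 20 of 22, and in 19 with library totals.

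Higher at day 1 than at day 3 was CYP26A1, at 118 and 208 CPM at day 1 and at 3.58 and 3.88 CPM at day 3 (log2 change 5.39, SE 0.33). Uninjured KRT12-high cells held 974 and 960 CPM of it. From high to low the order of the days was thus uninjured, day 1, day 3. CYP26B1 had another order, with 7.78 and 10.1 CPM in uninjured corneas, 524 and 542 CPM at day 1, and 50.1 and 39.8 CPM at day 3. CCL20 was at 99.1 and 83.4 CPM at day 1 and at 2.69 and 1.94 CPM at day 3. KRT23 was at 245 and 192 CPM at day 1 and at 11.6 and 6.80 CPM at day 3, and MUC22 at 209 and 197 CPM at day 1 and at 23.3 and 9.71 CPM at day 3. CYP26B1, KRT23 and MUC22 were highest at day 1 among the 3 days.

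Most tight junction, EGF family and NRF2 target genes were higher at day 1 than at day 3, whereas of 10 heat shock genes none was higher and 6 were lower. Of 8 tight junction genes 7 were higher and none lower, with CLDN7 at 1308 and 1391 CPM at day 1 and at 420 and 353 CPM at day 3. Of 9 EGF family genes 6 were higher and 1 lower, and of 15 NRF2 targets 10 were higher and 2 lower. TXNRD1, the NRF2-regulated thioredoxin reductase, was at 141 and 144 CPM at day 1 and at 36.7 and 32.0 CPM at day 3. CXCL14 was at 208 and 164 CPM at day 1 and at 956 and 941 CPM at day 3, beside 967 and 821 CPM in uninjured corneas (day 3 and uninjured corneas were not compared by a test). Mitochondrially encoded transcripts were higher in 6 of 9 genes and lower in none.

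**Figure D5:**
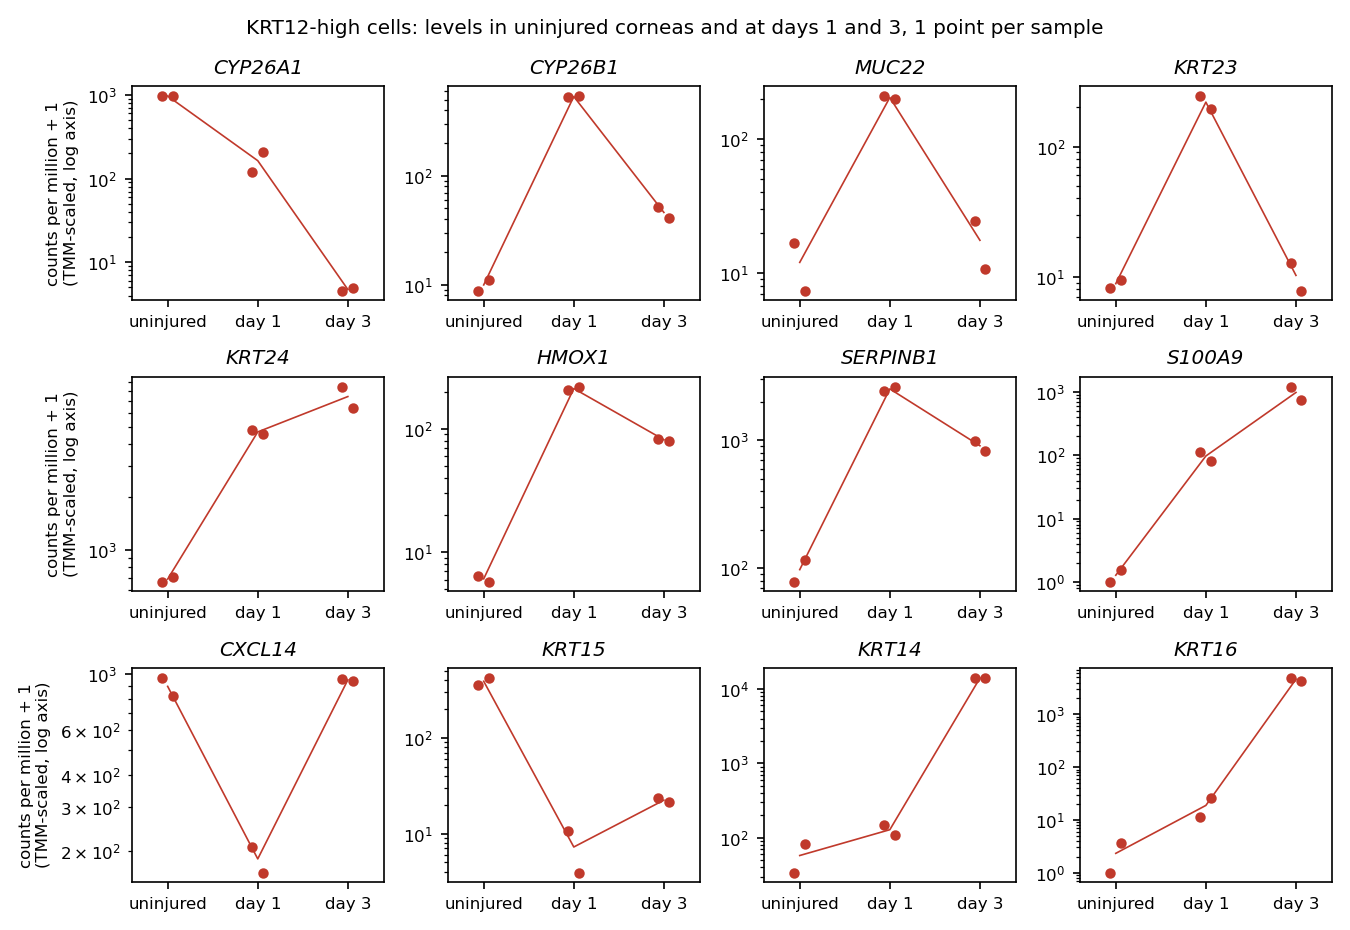
Levels of 12 genes in KRT12-high cells of uninjured corneas and at days 1 and 3, with 1 point per sample. Values are TMM-scaled CPM plus 1 on a log axis, and a line runs through their arithmetic means. CYP26B1, MUC22, KRT23, HMOX1 and SERPINB1 peak at day 1, CXCL14 and KRT15 are lowest there, and KRT14 and KRT16 rise to day 3.

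The isoform tables hold counts for the same barcodes. The labels do not say whether the gene tables were counted from the same long reads, so the 2 kinds of table may share their reads. The 2 day 1 tables name isoforms in different systems, so shares are set side by side only within a replicate. In replicate 1 full splice matches to known transcripts made up 62.4% of isoform counts in KRT12-high cells (exact binomial interval 62.3 to 62.5%) and 62.5% in KRT12-low cells (62.4 to 62.6%), so no difference was seen beyond counting error. Incomplete matches made up 6.18% in KRT12-high cells and 5.60% in KRT12-low cells, and isoforms with a splice site outside the annotation 25.2% in KRT12-high and 25.8% in KRT12-low cells. In replicate 2 full splice matches made up 79.3% in KRT12-high cells and 78.6% in KRT12-low cells, and intergenic ones 9.37% in KRT12-high and 10.2% in KRT12-low cells, over the 310 of 316 and 609 of 633 barcodes with an isoform column. These intervals cover counting error only, and with 1 sample in each naming system there is no replicate check. Summed over their isoforms, all 102 named genes with a value in replicate 1 had the gene tables' direction between KRT12-high and KRT12-low cells. In replicate 2 it was 93 of 94, PCNA being the exception. Apart from the genes that describe the class, these were picked for a call and the same direction in both samples. That choice used the gene tables of the same barcodes, so the counts are no independent check.

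The isoforms with the largest shifts in share in replicate 1 were chosen after their values were seen and have no second sample in the same naming. For CTSC, the cathepsin that activates serine proteases, 1 full-match isoform made up 27.7% of the gene's isoform counts in KRT12-high cells (102 of 368, interval 23.2 to 32.6%) and 47.2% in KRT12-low cells (135 of 286, interval 41.3 to 53.2%). For CXCL14, 1 full-match isoform made up 81.6% in KRT12-high cells (164 of 201, interval 75.5 to 86.7%) and 63.1% in KRT12-low cells (142 of 225, interval 56.4 to 69.4%). For gelsolin, GSN, an actin-severing protein, it was 24.9% in KRT12-high cells (161 of 647, interval 21.6 to 28.4%) and 7.07% in KRT12-low cells (29 of 410, interval 4.79 to 10.0%).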

How the data were processed

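Per the labels' protocols, cells were strained, captured on the 10x Genomics Chromium controller and sequenced with HIT-scISOseq. The submitters' processing notes name Cell Ranger. Which aligner, genome build and barcode filter were used is not given in the sources used here. The authors deposited, per sample, a gene by barcode and an isoform by barcode table, each value a whole-number count without normalisation. A table lists only some genes: 11206 of 14623 gene names occur in all 6, and a gene without a row was counted as 0. Whether reads of a molecule were collapsed is not stated. No genome or sequence was used here, so no position or sequence is printed.

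All barcodes were kept. Counts were summed per sample and KRT12 class without KRT12 and fitted in edgeR 4.0.16 (R 4.3.3) with TMM, filterByExpr, the quasi-likelihood F test and a Benjamini-Hochberg threshold of 0.05 over all genes. The comparisons within samples used 12 sums, with sample as a block and a KRT12-high term per day (3 residual degrees of freedom). Those between days used the 6 KRT12-high sums. Replicate sums of KRT12-high cells at day 1 differed beyond counting error (chi-square per degree of freedom 2.42). Precision rests on 2 samples per group. The fits were tested on simulated counts with known changes, placed in genes above a count floor. Of 2-fold changes 76% to 94% were recovered, and of 1.5-fold changes 30% to 65%. Both shares were lowest for the difference of differences. A gene that did not pass the test may therefore still have changed.

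The members, gene lists and named genes were chosen with earlier results of these data known. Named genes are up to 3 members per list (2 for comparisons between days) with the largest change past the threshold. The 8 highest and 8 lowest genes (6 in the other comparisons) were added. All had conditions on level and on agreement between samples. Between days the condition was that the samples did not overlap, so the lack of overlap is no result for these genes. Within day 1 it was the same direction in both samples, on top of the threshold and a large change. Lack of overlap there is no independent support either. The text leaves out some of these genes and says where others were added. Doublets were called with Scrublet in scanpy 1.11.5 (66 of 7895, 0.836%) and left out as an alternative only. Other alternatives were library totals, DESeq2 1.42.0, no low-count filter, a test against a 2-fold change, other cuts, depth thinning, the replicate block and leaving out each replicate. A floor of 3 counts over a group gave bounds, and intervals are exact at 95%. Shares at 1000 counts are expected values of drawing 1000 counts from each barcode. A further result is not reported here.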

Additional observations from a re-analysis of the deposited data

Results flagged for a closer look

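The genes below are those whose difference between KRT12-high and KRT12-low cells was itself different between day 1 and uninjured corneas, by edgeR's test of that difference, and that had the largest such values among the named genes. Values are log2 differences of differences, positive where the difference moved towards KRT12-high cells at day 1. Towards KRT12-high cells moved CXCL1 (5.64), CCL20 (5.53), GPHA2 (4.92), F3 (4.40), CXCL8 (4.12) and KRT24 (3.63). Towards KRT12-low cells moved IFI27 (-4.58), PCK1 (-4.70), PI3 (-4.76), MT3 (-4.84), MUC20 (-5.13) and SCGB3A1 (-7.19). A positive value does not by itself mean a higher level in KRT12-high cells at day 1. CXCL1, F3 and CXCL8 were lower in KRT12-high cells than in the lowest and second quartiles of both day 1 replicates. Without TMM scaling, F3 was at 11.7 and 2.97 CPM in KRT12-high cells, against 328 and 351 CPM in the lowest quartile. Uninjured KRT12-high cells held 2 counts of CXCL1, 0 of F3 and 1 of CXCL8. Several of these rest on few counts in a class. GPHA2, a limbal marker, was at 0.80 and 0.97 CPM in KRT12-high and 2.44 and 5.18 CPM in KRT12-low cells at day 1, and at 2.395 and 4.76 CPM in KRT12-high and 434 and 453 CPM in KRT12-low cells of uninjured corneas. PCK1 was at 7.99 and 7.76 CPM in KRT12-high and 0 and 1.30 CPM in KRT12-low cells at day 1, and at 592 and 681 CPM in KRT12-high and 0.53 and 2.99 CPM in KRT12-low cells of uninjured corneas. SCGB3A1, a secretoglobin, was at 3.997 and 2.91 CPM in KRT12-high and 613 and 238 CPM in KRT12-low cells at day 1, and uninjured replicate 1 had no row for it. Values fitted to genes with no count or no row in a class depend on the prior count and are no bound. KRT24 is one of the genes that describe the class at day 1, so its value is a description. By edgeR, 5 of these calls were lost when 1 replicate was left out: GPHA2 had adjusted p = 0.25 without day 1 replicate 1 and 0.17 without day 1 replicate 2. F3 had adjusted p = 0.31 without day 1 replicate 1, 0.15 without uninjured replicate 1 and 0.12 without uninjured replicate 2. PCK1 had adjusted p = 0.94 without day 1 replicate 2 and 0.076 without uninjured replicate 1. SCGB3A1 lost its call without any 1 of the 4 replicates, and CCL20 reversed to -0.26 without uninjured replicate 2 (adjusted p = 1). With KRT4 or KRT7 barcodes left out CCL20 had adjusted p = 0.10 and GPHA2 0.87 by edgeR. With DESeq2 the calls of CCL20, F3 and SCGB3A1 were lost (adjusted p = 0.16, 0.16 and 0.69). Thinning barcodes to 1000 counts lost the calls of CCL20, GPHA2, F3, PCK1 and SCGB3A1. Taking the top 10% of barcodes lost those of CCL20, GPHA2, F3, PCK1 and CXCL8 (edgeR adjusted p = 0.23 for CXCL8).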

How the results depend on the processing

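Gene counts are given as higher and lower for 4 comparisons of KRT12-high cells at day 1, in this order: against KRT12-low cells, the change of that difference from uninjured corneas, against uninjured KRT12-high cells, and against KRT12-high cells at day 3. DESeq2 called 909 and 1253, 214 and 360, 1451 and 995, and 1073 and 1270 genes. A test against a 2-fold change called 294 and 762, 38 and 152, 406 and 454, and 266 and 512 genes. Taking the top 10% of barcodes gave 1189 and 1645, 348 and 572, 1181 and 1062, and 946 and 1106 genes. Thinning barcodes to 1000 counts gave 846 and 1280, 270 and 411, 980 and 917, and 739 and 869 genes. Library totals gave 1548 higher and 3363 lower genes against uninjured corneas. The third quartile in place of KRT12-low cells gave 137 higher and 226 lower genes. Leaving out KRT4 or KRT7 barcodes, chosen after seeing the data, gave 1731 and 2028, 726 and 940, 2254 and 2135, and 1848 and 2018 genes. Leaving out 1 replicate gave 1091 to 1296 higher genes in the first comparison and 353 to 520 in the second. Smaller sums, fewer barcodes or a stricter hypothesis go with the lower counts by construction in the thinned, top 10% and 2-fold settings; for the others the cause was not tested.

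Replicate numbers did not pair the samples, since deviations of same-numbered samples correlated at 0.0277, -0.00559 and -0.0957. With the replicate block, 2306 genes were higher and 2151 lower at day 1 than in uninjured corneas, and 1978 higher and 2093 lower than at day 3. Without the sample block, 1666 and 2016 genes were called against KRT12-low cells, and 457 and 752 for the change of that difference.

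Among single genes, 2296 values under an alternative were compared with the reported one. Of these, 2194 kept direction and call, 93 kept direction only and 9 reversed. With the third quartile in place of KRT12-low cells, 25 of 59 genes kept both, 27 kept direction only and 7 reversed. SC5D, MSMO1, GRHL1, ETNPPL and SCIN were among the 27. Against the third quartile the log2 differences were -0.42 for MUC22, -0.0896 for KRT24, -0.0536 for TKT, -0.0758 for CLDN1, -0.00925 for PTGS2, -0.35 for NQO1 and -1.39 for CXCL14. Without KRT4 or KRT7 barcodes CXCL14 was at -0.55. In the change of the difference CCL20 ranged from -0.26 without uninjured replicate 2 to 6.41 without uninjured replicate 1. The cause of these reversals was not tested. With the top 10% of barcodes, full splice matches in KRT12-high cells were 62.6% in replicate 1 and 79.7% in replicate 2, and isoforms joining known splice sites in a new way 2.10% in replicate 2. Depth limits genes with few counts in a class, such as F3, GPHA2, PCK1 and SCGB3A1.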
